A study of Mus musculus with 27 samples.

Results

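The genes described are 8 enzymes of deoxynucleotide synthesis, chosen by name as the rows whose Ensembl identifier maps to Rrm1, Rrm2, Rrm2b, Tk1, Tyms, Dut, Dck and Dctpp1, out of 55414 genes counted in mouse liver. All 8 were found, and all 8 were among the 14114 genes that were tested because their counts averaged 10 or more over the libraries. Cells make the building blocks of DNA by reducing ribonucleotides with ribonucleotide reductase, an enzyme of a large subunit (Rrm1) and a small subunit that is either Rrm2, which proliferating cells make in S phase, or Rrm2b, which is induced by p53 and serves resting and damaged cells. Dut and Tyms then take dUTP by way of dUMP to thymidylate, Tk1 and Dck return deoxynucleosides to the pool by phosphorylating them, and Dctpp1 removes dCTP and its modified forms. The adult liver is mostly quiescent, and hepatocytes re-enter the cell cycle after injury.

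RNA was isolated from the livers of 27 female Balb/c mice, 8 weeks old, in 8 groups. CCl4, a hepatotoxin used to induce fibrosis, was injected intraperitoneally for 2 weeks in 14 mice, and the other 13 received its vehicle, olive oil. Within both sets a group received PBS (control, n = 4, and CCl4, n = 2), a group 4MU, an inhibitor of hyaluronic acid synthesis, by gavage at 600 mg/kg daily (4MU, n = 3, and CCl4 + 4MU, n = 4), and groups lipid nanoparticles with an siRNA against luciferase, a non-targeting control (siLuc-LNP, n = 3, and CCl4 + siLuc-LNP, n = 4), or against Has2 (siHAS2-LNP, n = 3, and CCl4 + siHAS2-LNP, n = 4). The nanoparticles were given into the tail vein at 1 mg/kg first and 0.5 mg/kg later. The paper describes gavage of control mice with carboxymethyl cellulose, the carrier of 4MU, and does not name PBS for them.

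Libraries held 7044386 to 29425937 counts, and the lowest total was that of CCl4 + siHAS2-LNP mouse 4. Has2, the targeted gene, had 0 counts in 25 of 27 libraries, 2 counts in CCl4 mouse 2 and 1 count in CCl4 + siLuc-LNP mouse 4, so its knockdown was not detectable at this depth. A count of 0 allows up to 0.104 to 0.4 CPM (counts scaled to the library total, adjusted by TMM, a normalisation that assumes most genes do not change) depending on the library, counting error only. CCl4 mouse 2, CCl4 + siLuc-LNP mouse 4 and CCl4 + 4MU mouse 3 had the highest levels of several of the 8 genes within their groups, and the results that rest on them are given with and without them. In whole liver, more cells of a type and more RNA per cell cannot be told apart.

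Levels of the 8 genes in the liver without injury differed widely. Per kilobase of annotated exon, the control mean was highest for Dctpp1, at 37.4 CPM, and lowest for Rrm2b and Rrm2, at 0.256 and 0.412 CPM, with Rrm1 at 0.886, Tyms at 1.21, Dck at 1.24, Dut at 3.72 and Tk1 at 3.73 CPM. In CCl4 mice Rrm2 stood at 22.8 CPM per kilobase, above Rrm1 at 7.83, Dut at 12.8 and Tk1 at 7.32, and below Dctpp1 at 34.4. Per kilobase of coding sequence the order differed, with Rrm2 at 1.15 below Rrm2b at 2.39 CPM in control mice, and in CCl4 mice Tk1 at 67.5 and Rrm2 at 64 CPM above Dctpp1 at 56.1 CPM.

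The promoters of the 3 genes that hold the CCAAT box, a common promoter motif, are shown. RefSeq promoter windows of build GRCm38.p6, from 250 bases before to 50 after the start site, were found for 7 of the 8 genes, Rrm2b being the one without an entry. None of the 7 held any of the E2F octamers TTTCCCGC, TTTCGCGC, TTTGCCGC and TTTGGCGC on either strand, which 2.26% of all 32851 promoter windows held. CCAAT on either strand was in 37.4% of all windows, and in those of Rrm1, Rrm2 and Dctpp1 among the 7. The windows are chr7:102441445-102441744 for Rrm1 (plus strand), chr12:24708004-24708303 for Rrm2 (plus strand) and chr7:127260618-127260917 for Dctpp1 (minus strand). They are written 5′ to 3′ along the gene, with CCAAT, or its complement ATTGG, in capitals.
Rrm1: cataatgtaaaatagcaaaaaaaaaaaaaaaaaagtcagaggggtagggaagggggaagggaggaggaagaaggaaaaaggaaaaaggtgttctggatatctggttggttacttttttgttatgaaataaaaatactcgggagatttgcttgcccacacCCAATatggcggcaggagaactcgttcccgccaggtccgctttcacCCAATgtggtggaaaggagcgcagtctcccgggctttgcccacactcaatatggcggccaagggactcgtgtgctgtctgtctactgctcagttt
Rrm2: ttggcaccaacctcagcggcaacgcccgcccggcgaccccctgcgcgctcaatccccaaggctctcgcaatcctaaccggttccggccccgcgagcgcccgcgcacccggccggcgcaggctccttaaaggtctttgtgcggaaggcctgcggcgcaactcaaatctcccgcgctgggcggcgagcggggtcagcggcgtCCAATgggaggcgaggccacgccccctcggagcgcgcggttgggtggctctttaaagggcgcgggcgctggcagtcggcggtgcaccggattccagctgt
Dctpp1: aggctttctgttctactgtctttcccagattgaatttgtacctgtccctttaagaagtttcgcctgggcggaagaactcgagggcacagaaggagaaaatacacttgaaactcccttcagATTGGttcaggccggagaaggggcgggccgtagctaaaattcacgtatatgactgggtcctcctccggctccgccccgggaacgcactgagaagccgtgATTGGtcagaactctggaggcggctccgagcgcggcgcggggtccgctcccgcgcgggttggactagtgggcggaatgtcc
Rrm1 held CCAAT from positions -91 and -45 relative to the start site, Rrm2 from -50, and Dctpp1 its complement from -130 and -31. The letters were thus present in the gene that rose most with CCl4 and in one that did not pass the test.

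The first question was how CCl4 changed the 8 transcripts, tested as the mean of the CCl4 effects within the 4 treatment arms. Transcripts of 6 of the 8 genes rose: both main subunits of ribonucleotide reductase, the thymidylate pathway genes Dut and Tyms, and the salvage kinases Tk1 and Dck. The background was high, since 51.9% of all genes tested passed the same threshold, with 3711 genes up and 3608 down. Library totals in place of TMM moved the median of all genes to 0.16 and the split to 5385 up and 1842 down, and the same 6 of the 8 genes still rose. The median log2 fold change of the 8 genes was 0.99, against -0.0153 over all genes tested. The same count of 6 was found when any single library was left out.

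Rrm2, at chr12:24757811-24764145 (GRCm39, plus strand), changed most. In the 13 mice without CCl4 it ranged from 0.86 to 2.9 CPM with a median of 1.44, and in the 14 CCl4 mice from 3.13 to 107 CPM with a median of 11.2. Every CCl4 mouse stood above every mouse without CCl4. The rise was 13.3-fold (log2 fold change 3.73, SE 0.299, adjusted p = 1.85e-10, edgeR's quasi-likelihood test). Exons of Rrm2 share 1437 bases (43.3%) with an antisense lncRNA gene annotated on the opposite strand, and the strand setting of the counting is not given in the sources used here, so reads of the pair may not be separated. The Rrm2 transcript also has a partial copy elsewhere in the genome, over 420 bases (16%) at 95.48% identity. Reads that map to several places were not counted.

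Rrm1, the large subunit, at chr7:102090890-102119709 (plus strand), ranged from 8.43 to 14.6 CPM (median 11.9) without CCl4 and from 12.1 to 124 CPM (median 25) with it. Of the 14 CCl4 mice, 13 stood above all others, and CCl4 + 4MU mouse 4 did not. The rise was 3.24-fold (log2 1.70, SE 0.172, adjusted p = 1.2e-08).

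Rrm2b, at chr15:37924196-37961562 (minus strand), encodes the alternative small subunit. It ranged from 1.61 to 3.29 CPM (median 2.28) without CCl4 and from 1.36 to 3.07 CPM (median 2.05) with it, so the sets overlapped. Its log2 fold change was -0.20 (SE 0.148, 95% interval -0.49 to 0.09, adjusted p = 0.258). Of 9 other p53 target genes, 8 rose and none fell in the same comparison, where 51.9% of all genes tested passed. Their median log2 fold change was 0.73. The Rrm2b transcript has a copy on another chromosome that covers 99.9% of its length at 96.41% identity, and reads that map to several places were not counted, so its counts are uncertain. The annotated pseudogene at that copy, Gm8616, had 0 counts in all 27 libraries. Exons of Rrm2b also share 755 bases (7.68%) with the antisense lncRNA gene Gm49085, which had at most 18 counts in a library. The pseudogene Gm3362 overlaps the Rrm2b span on the same strand and shares 0 exon bases. It had at most 9 counts in a library.

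**Figure D1:**
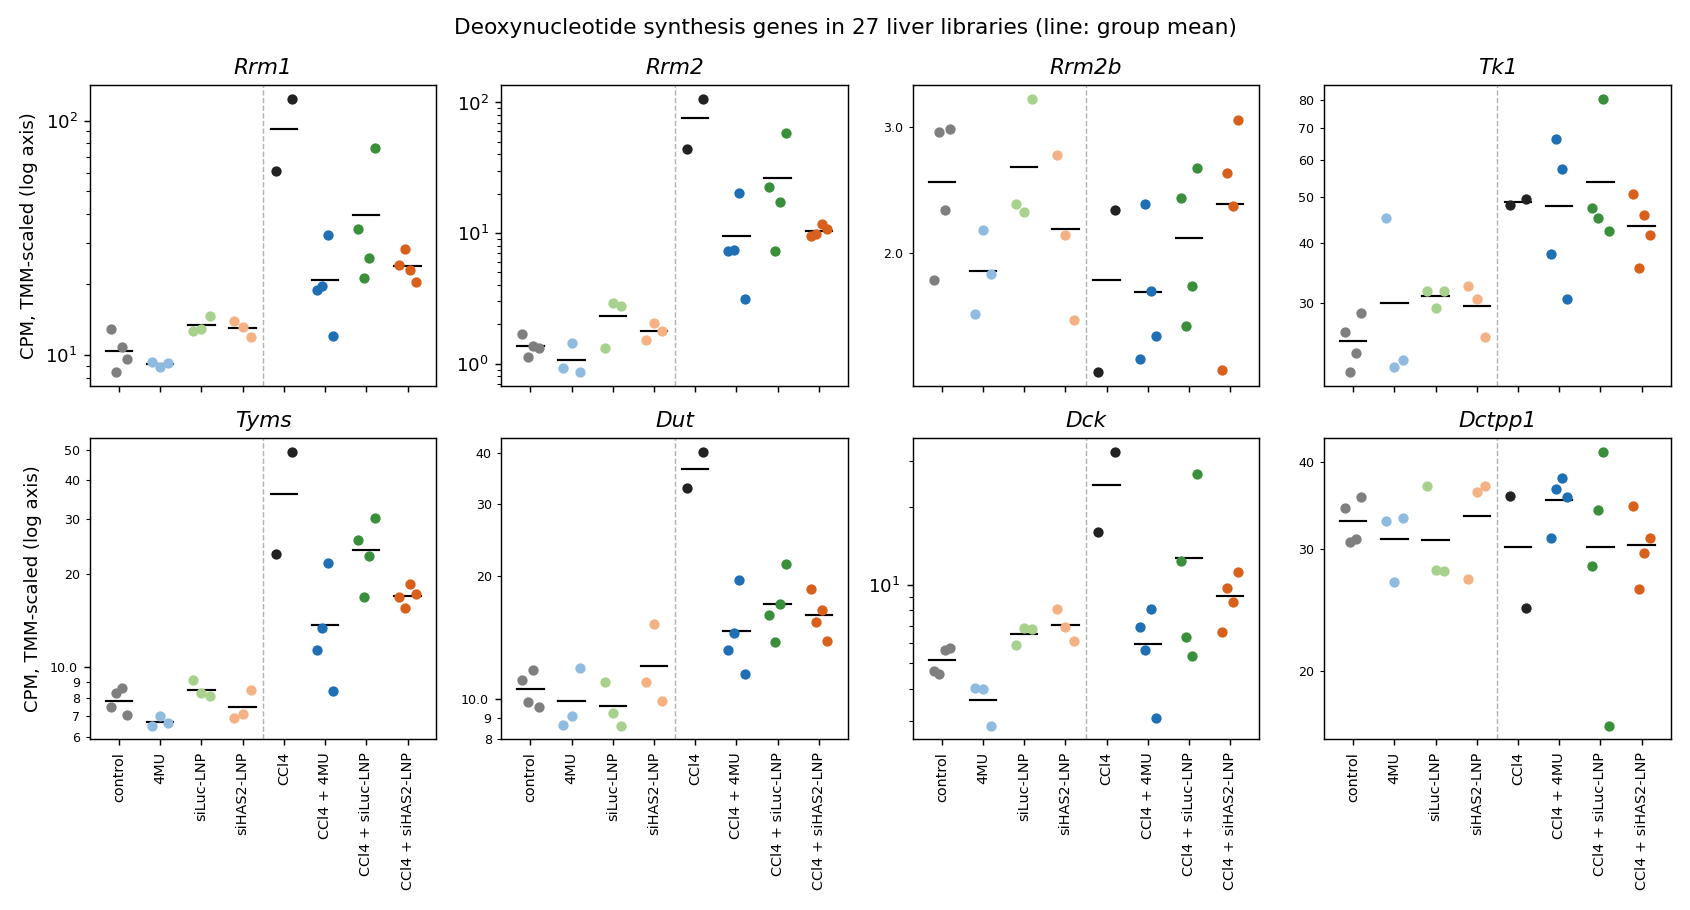
Each point is the level of a gene in a liver library, in CPM of the TMM-scaled total on a log axis, by group, with a line at the group mean; the dashed line separates mice without CCl4 (left) from CCl4 mice (right). Rrm2 was below 3 CPM in every mouse without CCl4 and above 3 CPM in every CCl4 mouse, while Rrm2b and Dctpp1 overlapped.

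Tyms, thymidylate synthase, at chr5:30263198-30278633 (minus strand), ranged from 6.5 to 9.14 CPM (median 7.47) without CCl4 and from 8.39 to 49.2 CPM (median 17.8) with it. Again 13 of 14 CCl4 mice exceeded all others. The rise was 2.79-fold (log2 1.48, SE 0.128, adjusted p = 7.24e-10). Dut, the dUTPase that makes the substrate of Tyms, at chr2:125089110-125100966 (plus strand), ranged from 8.6 to 15.3 CPM (median 9.86) without and from 11.5 to 40.3 CPM (median 16.3) with CCl4. It rose 1.87-fold (log2 0.90, SE 0.0968, adjusted p = 3.05e-08), and 9 of 14 CCl4 mice exceeded all others.

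Tk1, the cytosolic thymidine kinase of cycling cells, at chr11:117702770-117717042 (minus strand), ranged from 21.4 to 45.3 CPM (median 28.6) without and from 30.5 to 80.7 CPM (median 46.7) with CCl4. It rose 1.68-fold (log2 0.75, SE 0.131, adjusted p = 3.95e-05), with 9 of 14 CCl4 mice above all others. Its exons share 630 bases (9.45%) with Syngr2 and 121 bases (1.81%) with Afmid on the opposite strand. Dck, deoxycytidine kinase, at chr5:88912695-88931151 (plus strand), ranged from 2.88 to 8.07 CPM (median 5.76) without and from 3.09 to 32.6 CPM (median 8.39) with CCl4. It rose 2.1-fold (log2 1.07, SE 0.201, adjusted p = 9.77e-05), and 8 of 14 CCl4 mice exceeded all others.

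Dctpp1, at chr7:126856127-126859893 (minus strand), had the highest control mean of the 8, per kilobase of exon and of coding sequence. It ranged from 26.9 to 37 CPM (median 32.9) without and from 16.7 to 41.4 CPM (median 32.6) with CCl4. The log2 fold change was -0.0278 (SE 0.105, 95% interval -0.23 to 0.18, adjusted p = 0.842), and its sign turned under some alternatives, the highest value being 0.13 with library totals.

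The spread among CCl4 mice differed between the genes. The highest CCl4 mouse had 34.4 times the lowest for Rrm2, 10.6 times for Dck, 10.2 times for Rrm1 and 5.86 times for Tyms, but 2.64 times for Tk1, 2.48 times for Dctpp1 and 2.25 times for Rrm2b. Without CCl4 these ratios were 3.37 for Rrm2, 2.8 for Dck, 1.73 for Rrm1, 1.41 for Tyms, 2.12 for Tk1, 1.37 for Dctpp1 and 2.04 for Rrm2b. When the 8 groups were ordered by mean level, 7 of 7 neighbouring pairs overlapped in range for Rrm1, Rrm2b, Tyms and Dctpp1, and 6 of 7 for the rest. The pairs that stood apart were CCl4 + 4MU above siLuc-LNP for Rrm2, CCl4 + siHAS2-LNP above siLuc-LNP for Tk1, CCl4 above CCl4 + siLuc-LNP for Dut, and control above 4MU for Dck. The share of such pairs over all genes tested was not computed, and groups this small can stand apart by chance. Dck did not pass between 4MU and control mice (log2 fold change -0.5, edgeR adjusted p = 0.953).

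The same rise was then read within each arm. Between CCl4 and control mice, 6 of the 8 genes rose, against 34.1% of all genes called in either direction (2537 up, 2269 down). Rrm2 had 1.68, 1.12, 1.37 and 1.31 CPM in the control mice and 44.2 and 107 CPM in the CCl4 mice, a 55.2-fold rise (log2 5.79, SE 0.601, adjusted p = 8.02e-08). Rrm1 had 12.9, 8.43, 10.8 and 9.64 CPM in control and 60.7 and 124 CPM in CCl4 mice, a rise of 8.84-fold (log2 3.14, SE 0.354, adjusted p = 2.75e-07). CCl4 mouse 2 was the higher of the CCl4 mice for both genes, and the groups did not overlap. Dck rose 4.72-fold (log2 2.24, SE 0.412), Tyms 4.62-fold (log2 2.21, SE 0.261), Dut 3.45-fold (log2 1.79, SE 0.201) and Tk1 1.96-fold (log2 0.97, SE 0.278). Without CCl4 mouse 2, the log2 fold change of Rrm2 was 5.03 and that of Tyms 1.59, and Tk1 at 0.98 no longer passed the test, which left 5 genes. Rrm2b had a log2 fold change of -0.45 (SE 0.327, adjusted p = 0.301).

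Within the 4MU arm (CCl4 + 4MU against 4MU), 4 of 8 genes rose, against 23.7% of all genes called in either direction (1863 up, 1486 down). Rrm2 was at 0.921, 1.44 and 0.86 CPM in 4MU mice and at 7.35, 7.42, 20.2 and 3.13 CPM in CCl4 + 4MU mice, an 8.69-fold rise (log2 3.12, SE 0.611, adjusted p = 0.000616). Rrm1 rose 2.29-fold, Tyms 2.04-fold and Dut 1.49-fold. Tk1 had a log2 fold change of 0.68 (adjusted p = 0.0554) and Dck of 0.70 (adjusted p = 0.216), and neither passed. In 7 of 15 alternatives Tk1 did pass, among them DESeq2 (0.68), limma-voom (0.87) and leaving out 4MU mouse 1 (1.11). In the other 8 it did not. Without CCl4 + 4MU mouse 3, the highest for Rrm2, the log2 fold change of Rrm2 was 2.44 and the count fell to 2, Rrm2 and Tyms. Dut at 1.49-fold did not pass without 4MU mouse 1 (log2 0.49) or 2 (0.51), with library totals (0.57) or in a fit of the 4MU groups alone (0.57).

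Within the siLuc-LNP arm, 5 of 8 genes rose, against 24.2% of all genes called in either direction (1841 up, 1577 down). Rrm2 was at 1.31, 2.9 and 2.77 CPM in siLuc-LNP mice and at 22.5, 7.28, 17.3 and 58 CPM in CCl4 + siLuc-LNP mice, an 11.2-fold rise (log2 3.49, SE 0.581, adjusted p = 0.000102). Rrm1 rose 2.95-fold, Tyms 2.81-fold, Dut 1.78-fold and Tk1 1.74-fold. Dck had a log2 fold change of 0.98 (adjusted p = 0.0691). Without CCl4 + siLuc-LNP mouse 4, the log2 fold change was 2.77 for Rrm2 and 0.34 for Dck. Dck passed in 4 of 15 alternatives and not in the other 11. The 4 were DESeq2 (0.99), no low-count filter (0.99), and leaving out CCl4 + siLuc-LNP mouse 2 (1.22) or 3 (1.25). Tk1 did not pass without siLuc-LNP mouse 1 (0.82), 2 (0.76) or 3 (0.82), without CCl4 + siLuc-LNP mouse 3 (0.56), or in a fit of the siLuc-LNP groups alone (0.80).

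Within the siHAS2-LNP arm, 2 of 8 genes rose, against 12.8% of all genes called in either direction (1093 up, 719 down). Rrm2 was at 1.53, 2.07 and 1.79 CPM in siHAS2-LNP mice and at 9.58, 9.8, 11.7 and 10.7 CPM in CCl4 + siHAS2-LNP mice, a 5.8-fold rise (log2 2.54, SE 0.582, adjusted p = 0.00466), and Tyms rose 2.28-fold. For Rrm2 these 4 CCl4 + siHAS2-LNP mice had the smallest SD of the CCl4 groups, 0.967 CPM around a mean of 10.4. Log2 fold changes that did not pass were 0.88 for Rrm1 (adjusted p = 0.0816), 0.56 for Tk1, 0.42 for Dut and 0.35 for Dck. With limma-voom and quality weights 4 genes passed, as they did in a fit of the siHAS2-LNP groups alone.

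The second question was whether each treatment changed the 8 transcripts in CCl4 mice. Each of the 3 treated groups was set against the same 2 CCl4 mice, so these comparisons are not independent of each other. With 4MU, 5 of the 8 genes fell and none rose, against 18.3% of all genes called in either direction. The median log2 fold change of the 8 was -1.36, against 0.0375 over all genes tested. Rrm2 was at 44.2 and 107 CPM in CCl4 mice and at 7.35, 7.42, 20.2 and 3.13 CPM in CCl4 + 4MU mice, a level 7.96-fold lower (log2 -2.99, SE 0.527, adjusted p = 0.000953). The groups did not overlap. Rrm1, at 60.7 and 124 against 19, 19.7, 32.6 and 12.1 CPM, was 4.42-fold lower (log2 -2.14, SE 0.346, adjusted p = 0.000706), and Dck, at 16 and 32.6 against 6.88, 5.63, 8.12 and 3.09 CPM, was 4.11-fold lower (log2 -2.04, SE 0.409). Tyms fell 2.64-fold (log2 -1.40, SE 0.259) and Dut 2.49-fold (log2 -1.31, SE 0.2). Dut was at 32.9 and 40.3 CPM in CCl4 mice and at 13.2, 14.5, 19.6 and 11.5 CPM with 4MU. Tk1 was at 48.1 and 49.5 CPM in CCl4 mice and at 38, 66.2, 57.4 and 30.5 CPM with 4MU, with a log2 fold change of -0.0237 (SE 0.284, 95% interval -0.58 to 0.53). Its CCl4 mice lay inside the range of the treated mice, and the sign of the difference turned under the replicate block and without CCl4 + 4MU mouse 1 or 4.

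These calls rested on CCl4 mouse 2. Without it, which leaves 1 mouse in the CCl4 group whose spread is taken from the other groups, only Dut passed (log2 -1.19), and the log2 fold changes of Rrm2, Rrm1, Dck and Tyms were -2.24, -1.57, -1.47 and -0.79. Without CCl4 mouse 1 all 5 passed. Without CCl4 + 4MU mouse 3, the log2 fold change of Rrm2 was -3.68. In the same comparison 3 of 6 hepatocyte markers rose, from a summed 77423 and 129515 CPM in CCl4 mice to 151684 to 181320 CPM, and 12 of 12 replication and cell cycle genes fell. Of 5 monocyte and macrophage markers 1 fell. Their part in the result was not tested.

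With siHAS2-LNP, 5 of 8 genes were lower than in CCl4 mice and none higher, against 14.4% of all genes called in either direction. The median log2 fold change was -1.13 over the 8 and 0.0164 over all genes tested. Rrm2, at 9.58, 9.8, 11.7 and 10.7 CPM, was 7.27-fold lower (log2 -2.86, SE 0.53, adjusted p = 0.00175), and Rrm1, at 24.1, 28.4, 23 and 20.4 CPM, was 3.83-fold lower (log2 -1.94, SE 0.348, adjusted p = 0.00142). Neither gene's range reached that of the CCl4 mice. Dck was 2.71-fold lower (log2 -1.44, SE 0.411), Dut 2.26-fold lower (log2 -1.18, SE 0.201) and Tyms 2.13-fold lower (log2 -1.09, SE 0.261). Tk1 had a log2 fold change of -0.17 (SE 0.283, 95% interval -0.72 to 0.39). Without CCl4 mouse 2, none of the 8 passed in edgeR, and the log2 fold changes of Rrm2, Rrm1, Dut, Dck and Tyms were -2.11, -1.36, -1.05, -0.86 and -0.47. Without CCl4 + siHAS2-LNP mouse 1 or mouse 3, Dck at -1.30 or -1.42 did not pass. Here 3 of 4 Kupffer cell markers fell, from a summed 211 and 253 CPM to 89.1 to 123 CPM, as did 3 of 6 stellate and myofibroblast markers and 2 of 4 endothelial markers, while 0 of 6 hepatocyte markers passed in edgeR (2 with an unadjusted p under 0.05). Of the replication and cell cycle genes 11 of 12 fell, as did 1 of 5 monocyte and macrophage markers and 1 of 3 biliary markers. Their part in the result was not tested.

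With siLuc-LNP, the non-targeting control, 1 of 8 genes was lower than in CCl4 mice, against 0.248% of all genes called in either direction (8 up, 27 down). This was Dut, at 16.1, 13.8, 17.1 and 21.4 CPM, 2.14-fold lower (log2 -1.10, SE 0.2, adjusted p = 0.0162). Log2 fold changes of -1.53 for Rrm2 (SE 0.519), -1.22 for Rrm1 (SE 0.347), -0.93 for Dck (SE 0.408) and -0.60 for Tyms (SE 0.261) did not pass. The Dut call was lost in a fit of the compared groups alone (-1.08), without CCl4 mouse 2 (-0.95) and without CCl4 + siLuc-LNP mouse 1 (-1.07), 2 (-1.0) or 3 (-1.10). Without CCl4 mouse 2 the values were -0.75 for Rrm2, -0.63 for Rrm1, -0.33 for Dck and 0.0373 for Tyms. Without CCl4 + siLuc-LNP mouse 4, which had 58 CPM of Rrm2 and 76.2 CPM of Rrm1, 4 genes passed, with log2 fold changes of -2.27 for Rrm2, -1.76 for Rrm1 and -1.59 for Dck beside Dut.

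**Figure D2:**
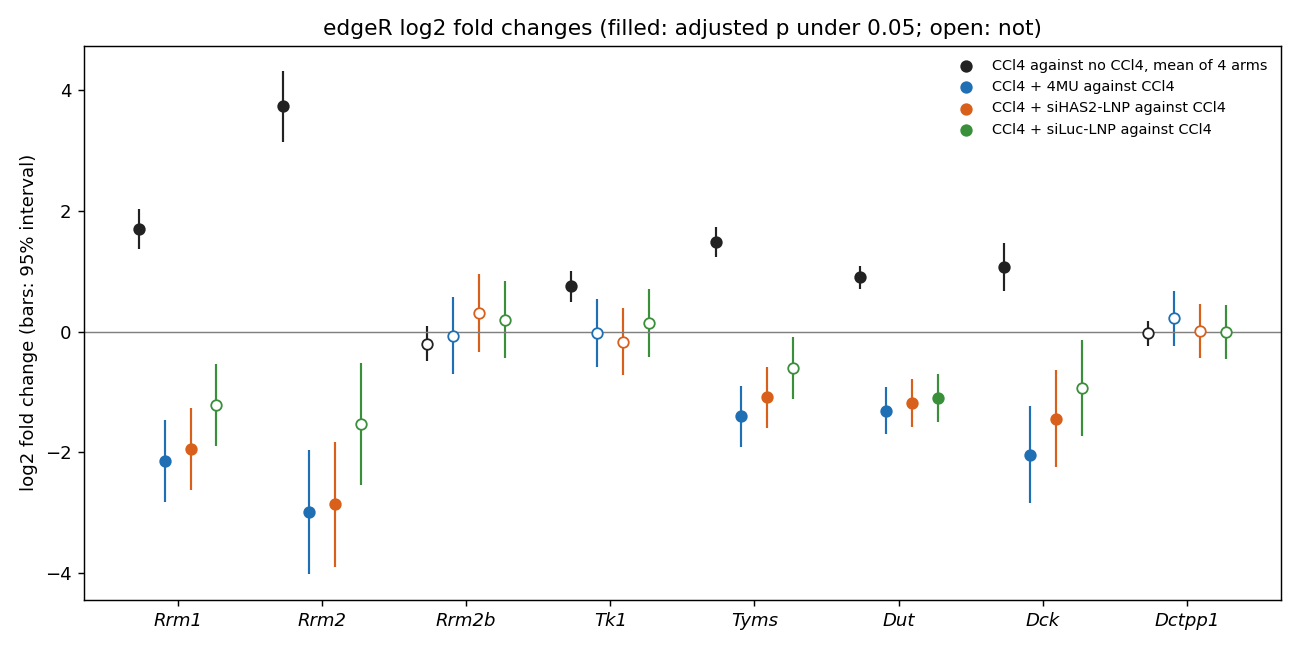
Points are edgeR log2 fold changes of the 8 genes in 4 comparisons, with bars for the 95% interval; filled points passed an adjusted p of 0.05 and open points did not. With CCl4, 6 genes lie above 0, and in the 3 treated groups set against the same 2 CCl4 mice Rrm1, Rrm2, Tyms, Dut and Dck lie below 0, while Rrm2b, Tk1 and Dctpp1 lie near 0.

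siHAS2-LNP and siLuc-LNP, which differ in the sequence of the siRNA, were compared directly in CCl4 mice. None of the 8 genes passed in edgeR, DESeq2 or limma-voom, against 1.09% of all genes, and 3 had an unadjusted p under 0.05. The log2 fold changes were -1.33 for Rrm2 (SE 0.46, 95% interval -2.24 to -0.43, adjusted p = 0.138), -0.72 for Rrm1 (interval -1.30 to -0.13), -0.49 for Tyms (interval -0.92 to -0.05), -0.51 for Dck (interval -1.20 to 0.18) and -0.31 for Tk1 (interval -0.77 to 0.15). Levels of Rrm2 overlapped, at 9.58 to 11.7 CPM with siHAS2-LNP and 7.28 to 58 CPM with siLuc-LNP. Without CCl4 + siLuc-LNP mouse 4 the log2 fold change of Rrm2 was -0.62, and that of Dck turned to 0.12. Without the low-count filter, Rrm2 and Rrm1 passed.

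In mice without CCl4, 4MU and siLuc-LNP were compared with control and siHAS2-LNP with siLuc-LNP. None of the 8 genes passed in edgeR, DESeq2 or limma-voom in these comparisons, and none had an unadjusted p under 0.05. The shares of all genes called were 0.00709% for 4MU against control, 0.213% for siLuc-LNP against control and 0.0425% for siHAS2-LNP against siLuc-LNP. Rrm2 averaged 1.37 CPM ± 0.232 (SD, n = 4) in control, 1.07 ± 0.321 (n = 3) in 4MU, 2.33 ± 0.88 (n = 3) in siLuc-LNP and 1.8 ± 0.27 (n = 3) in siHAS2-LNP mice. Rrm1 averaged 10.4 ± 1.88, 9.13 ± 0.24, 13.4 ± 1.02 and 13 ± 1.08 CPM in the same order. The highest Tk1 level without CCl4 was 45.3 CPM in 4MU mouse 1, against 22 and 22.7 CPM in the other 4MU mice.

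Interaction terms asked whether a treatment acted differently with and without CCl4. For 4MU, 2 of 8 genes passed, against 5.67% of all genes. The effect of 4MU in CCl4 mice lay below its effect without CCl4 by a log2 difference of -1.95 for Rrm1 (SE 0.483, adjusted p = 0.0284) and -1.21 for Dut (SE 0.276, adjusted p = 0.02). The differences were -2.67 for Rrm2 (SE 0.852, adjusted p = 0.059), -1.18 for Tyms (SE 0.362, adjusted p = 0.0528) and -1.54 for Dck (SE 0.577, adjusted p = 0.0994). No gene passed without CCl4 mouse 2 or without 4MU mouse 3, and 1 without 4MU mouse 2 or CCl4 + 4MU mouse 1 or 4, while 4 passed without CCl4 mouse 1 or CCl4 + 4MU mouse 3. Without CCl4 mouse 2 the differences were -1.37 for Rrm1, -1.91 for Rrm2, -1.09 for Dut and -0.56 for Tyms, and without CCl4 + 4MU mouse 3 that of Rrm2 was -3.35. For siLuc-LNP, none of 8 passed in edgeR, DESeq2 or limma-voom, against 0.00709% of all genes, and 4 had an unadjusted p under 0.05, with differences of -2.30 for Rrm2 (SE 0.801), -1.58 for Rrm1 (SE 0.481) and -0.96 for Dut (SE 0.277). Without CCl4 + siLuc-LNP mouse 4, 4 genes passed and Rrm2 was at -3.04, and without CCl4 mouse 2 Rrm2 was at -1.53 and Rrm1 at -0.99. For siHAS2-LNP against siLuc-LNP, none passed by any of the 3 tools, against 0.0354% of all genes, none had an unadjusted p under 0.05, and the differences were -0.95 for Rrm2 (SE 0.786) and -0.68 for Rrm1 (SE 0.462). Without CCl4 + siLuc-LNP mouse 4 the former was -0.24.

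The balance of the small subunits of ribonucleotide reductase was measured as the ratio of Rrm2 to Rrm2b, both as counts plus 1 per kilobase of exon. It ranged from 1.16 to 3.76 (median 1.78) in mice without CCl4 and from 5.99 to 136 (median 17.6) in CCl4 mice, with no overlap. The mean log2 ratio was 4.48 ± 1.32 (SD, n = 14) with CCl4 and 1.01 ± 0.529 (SD, n = 13) without, a difference of 3.47 (p = 2e-05, two-sided permutation test with 100000 resamples, the smallest p they can give). Per kilobase of coding sequence the ratio was 0.348 to 1.13 without CCl4 and 1.8 to 40.9 with it, so whether Rrm2 or Rrm2b was the higher without CCl4 depends on the length used. In the 2 CCl4 mice the ratio per kilobase of exon was 92.9 and 136. It was 15, 9.25, 33.1 and 5.99 in CCl4 + 4MU mice, 27.5, 13.4, 27.6 and 64.4 in CCl4 + siLuc-LNP mice, and 20.2, 11.1, 14.7 and 9.99 in CCl4 + siHAS2-LNP mice. All 12 treated CCl4 mice lay below both CCl4 mice. The log2 ratio of CCl4 + 4MU mice was 3.13 lower than that of CCl4 mice, given without a test because an exact two-sided permutation test of 4 mice against 2 cannot go below 0.133. Between CCl4 + siHAS2-LNP and CCl4 + siLuc-LNP mice the log2 ratio differed by -1.08 (p = 0.0857, exact two-sided permutation test, n = 4 and 4, for which the smallest possible p is 0.0286), and by -0.69 without CCl4 + siLuc-LNP mouse 4. The uncertainty of the Rrm2 and Rrm2b counts applies to all these ratios.

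**Figure D3:**
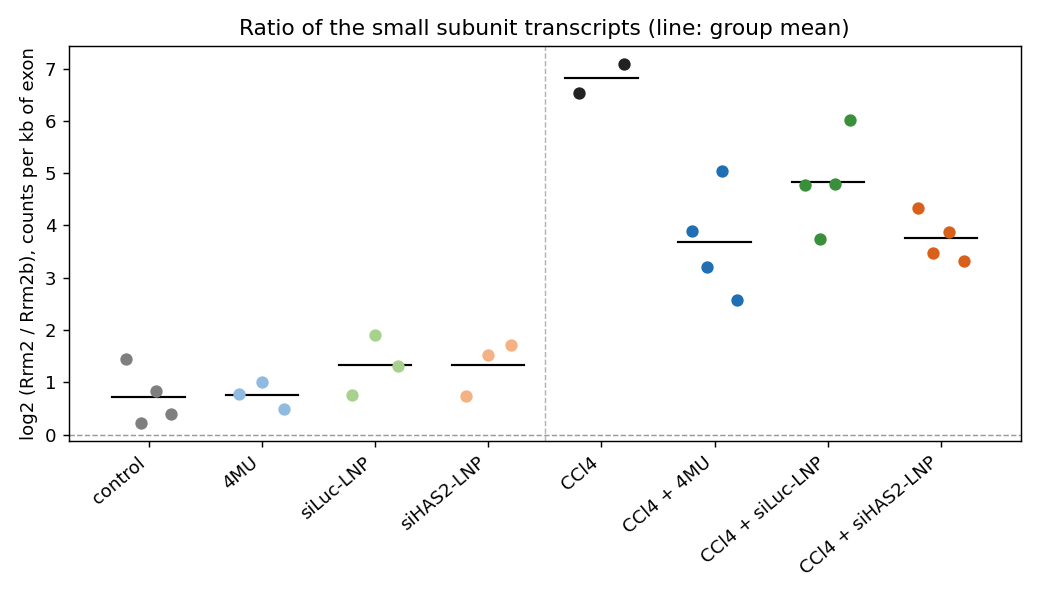
Each point is the log2 ratio of Rrm2 to Rrm2b in a library, from counts plus 1 per kilobase of exon, by group, with a line at the group mean; the dashed horizontal line is an equal level. Mice without CCl4 lie between 1.16 and 3.76 on the linear scale and CCl4 mice between 5.99 and 136.

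The other genes of deoxynucleotide metabolism were read as a list of 28, all tested. In the comparison of CCl4 with no CCl4 over the 4 arms, 8 rose, 9 fell and 11 did not pass, with a median log2 fold change of -0.04, so 17 of 28 passed against the 51.9% of all genes. The largest rises were those of Dctd, dCMP deaminase, which supplies dUMP (log2 2.53, SE 0.313, from group means of 0.107 to 0.302 CPM to means of 0.691 to 1.57 CPM, near the limit that a count of 0 allows), Upp1, a uridine phosphorylase (0.86), Nme1, a nucleoside diphosphate kinase (0.84), Ada, adenosine deaminase (0.82), and Cmpk2, a mitochondrial nucleotide kinase (0.72). Upp1 was also low, with group means of 0.452 to 0.709 CPM without CCl4 and 0.713 to 1.56 CPM with it. The highest mean was that of CCl4 + 4MU mice, with an SD of 1.31 CPM and a range of 0.812 to 3.52 CPM. In the siHAS2-LNP arm the means of Upp1 were 0.709 CPM without and 0.713 CPM with CCl4. The largest falls were those of Slc29a1, an equilibrative nucleoside transporter (log2 -0.91, SE 0.113), Cda, cytidine deaminase (-0.91, SE 0.172), Tk2, the mitochondrial thymidine kinase (-0.57), Tymp, thymidine phosphorylase (-0.56), and Pnp, purine nucleoside phosphorylase (-0.55). Exons of Tymp share 80.9% of their bases with Sco2 on the same strand, those of Pnp 18.4% and those of Nme1 7.61% with same-strand genes, and those of Ada 20.2% with Pkig on the opposite strand, so their counts are uncertain. Tymp did not pass with library totals (-0.42), with the replicate block (-0.49), in a fit of CCl4 against no CCl4 alone (-0.32) or without CCl4 mouse 2 (-0.43). Slc29a1 was at 164 to 209 CPM in mice without CCl4 and at 51.3 to 137 CPM in CCl4 mice, which did not overlap.

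**Figure D4:**
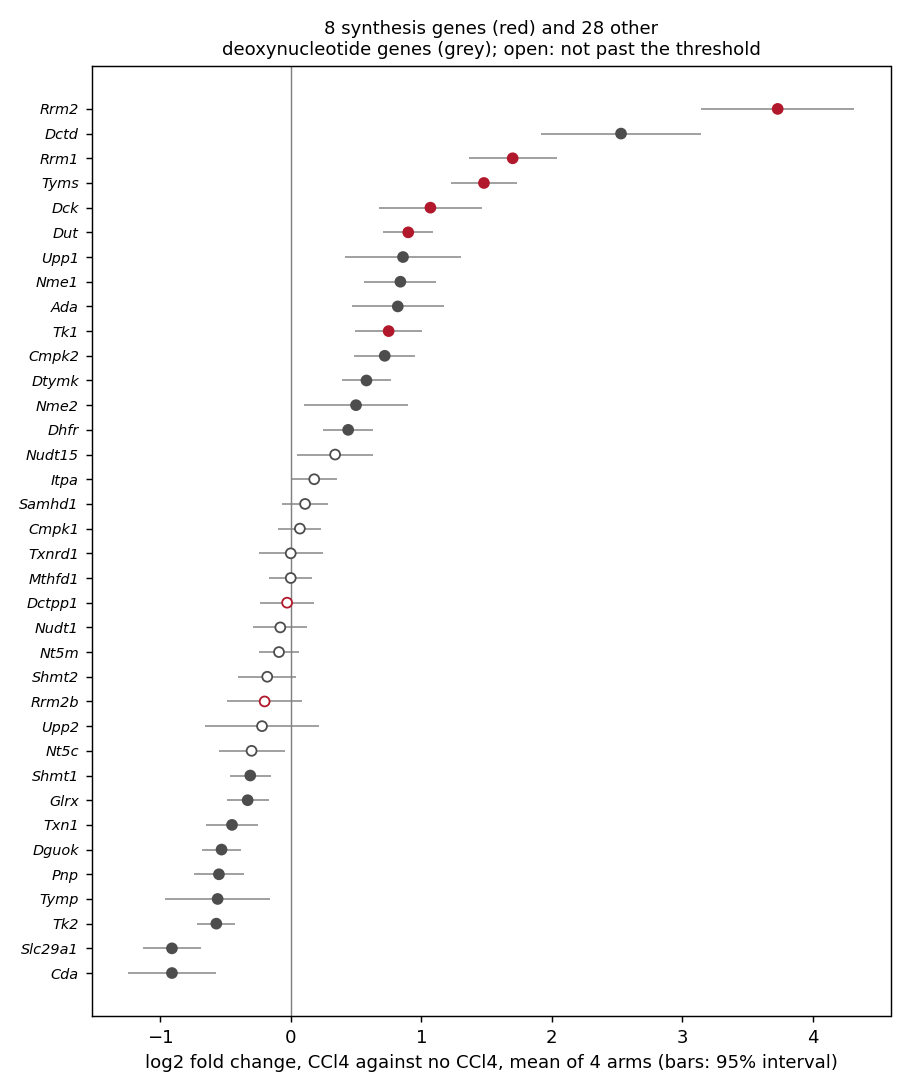
Points are edgeR log2 fold changes of the CCl4 effect, the mean of 4 arms, for the 8 synthesis genes (red) and 28 other deoxynucleotide genes (grey), with bars for the 95% interval; open points did not pass an adjusted p of 0.05. Rrm2 at 3.73 and Dctd at 2.53 lie at the top, and Slc29a1 and Cda, both at -0.91, at the bottom.

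Between CCl4 + 4MU and CCl4 mice, 5 of the 28 rose and 5 fell, with a median of 0.12, where 18.3% of all genes passed. The 3 with the smallest p were Dtymk, thymidylate kinase, which phosphorylates the product of Tyms (log2 -1.14, SE 0.2, adjusted p = 0.000953), Nme1 (-1.35, SE 0.294, adjusted p = 0.00352) and Cmpk1, the cytosolic UMP-CMP kinase (-0.76, SE 0.181, adjusted p = 0.00636). Dtymk was at 39.4 and 63 CPM, the lowest and highest of the 2 CCl4 mice, and at 18.6 to 30.2 CPM in CCl4 + 4MU mice. Dtymk at -0.79 and Cmpk1 at -0.85 did not pass without CCl4 mouse 2, and Nme1 at -0.98 did not pass without CCl4 mouse 1. Between CCl4 + siHAS2-LNP and CCl4 + siLuc-LNP mice none of the 28 passed or had an unadjusted p under 0.05.

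Levels of the 8 genes were then set beside 12 genes of DNA replication and the cell cycle, none of which is among the 8. All 12 rose with CCl4 over the 4 arms, with a median log2 fold change of 3.05. Their summed level was 36.9 to 87.7 CPM in mice without CCl4, 616 and 1270 CPM in the CCl4 mice, 106 to 320 CPM with 4MU, 198 to 802 CPM with siLuc-LNP and 218 to 267 CPM with siHAS2-LNP. Within the 14 CCl4 mice, log2 levels followed this sum for Rrm1 (Pearson's r = 0.99, Spearman's rho = 0.965), Rrm2 (r = 0.988, rho = 0.952), Tyms (r = 0.94, rho = 0.956), Dck (r = 0.922, rho = 0.754) and Dut (r = 0.917, rho = 0.921). Each of these r had an adjusted p of 3.2e-05 over 16 relations, from a raw permutation p of 1e-05, the smallest that 100000 resamples can give, and the adjusted p of rho was 5.3e-05 for Rrm1, Rrm2 and Tyms, 8e-05 for Dut and 0.0049 for Dck. Without the 2 mice farthest from the median of the sum, r was 0.974, 0.975, 0.881, 0.807 and 0.905 for Rrm1, Rrm2, Tyms, Dck and Dut. The values were r = 0.208 and rho = 0.389 for Tk1 (permutation p = 0.47 and 0.17, adjusted 0.58 and 0.3), and r = 0.209 and rho = 0.103 for Rrm2b (permutation p = 0.47 and 0.73, adjusted 0.58 and 0.78). For Dctpp1, r was -0.554 and rho -0.31 (permutation p = 0.044 and 0.28, adjusted 0.078 and 0.39), and r was 0.032 without the 2 farthest mice. Since the sum differed between the 4 groups, the relation was also taken on deviations from group means, an alternative chosen after seeing the data, with an exact two-sided permutation of mice within their own group. It then had r = 0.978 for Rrm1 (adjusted p = 0.0052), 0.97 for Rrm2 (0.0073), 0.896 for Dut (0.0052), 0.882 for Tyms (0.012) and 0.867 for Dck (0.018), and rho of 0.93, 0.859, 0.864, 0.846 and 0.767, of which that of Dck did not pass (adjusted p = 0.071). Rrm2b, Tk1 and Dctpp1 had r of 0.435, 0.131 and -0.659, none past the threshold (adjusted p = 0.24, 0.83 and 0.19).

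Within the 13 mice without CCl4, the relation over all mice passed the test for Rrm1 (r = 0.83, rho = 0.846, permutation p = 0.00087 and 0.0005, adjusted 0.002 and 0.0013), Dck (r = 0.817, rho = 0.901, permutation p = 0.00067 and 7e-05, adjusted 0.0018 and 0.00022) and Rrm2 (r = 0.758, rho = 0.791, permutation p = 0.0028 and 0.0019, adjusted 0.0057 and 0.0043). Without the 2 farthest mice r was 0.798, 0.789 and 0.747. Within groups none of the 3 relations passed the threshold, though r changed little for Rrm2 and was near 0 only for Dck. On deviations from group means r was 0.662 for Rrm1, 0.753 for Rrm2 and 0.028 for Dck (exact permutation within groups, adjusted p = 0.087, 0.065 and 0.95), and the 4MU mice had both the lowest sums and the lowest Dck levels, 4.04, 3.98 and 2.88 CPM. The other 5 genes had adjusted p-values of 0.32 or more for r and of 0.39 or more for rho.

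**Figure D5:**
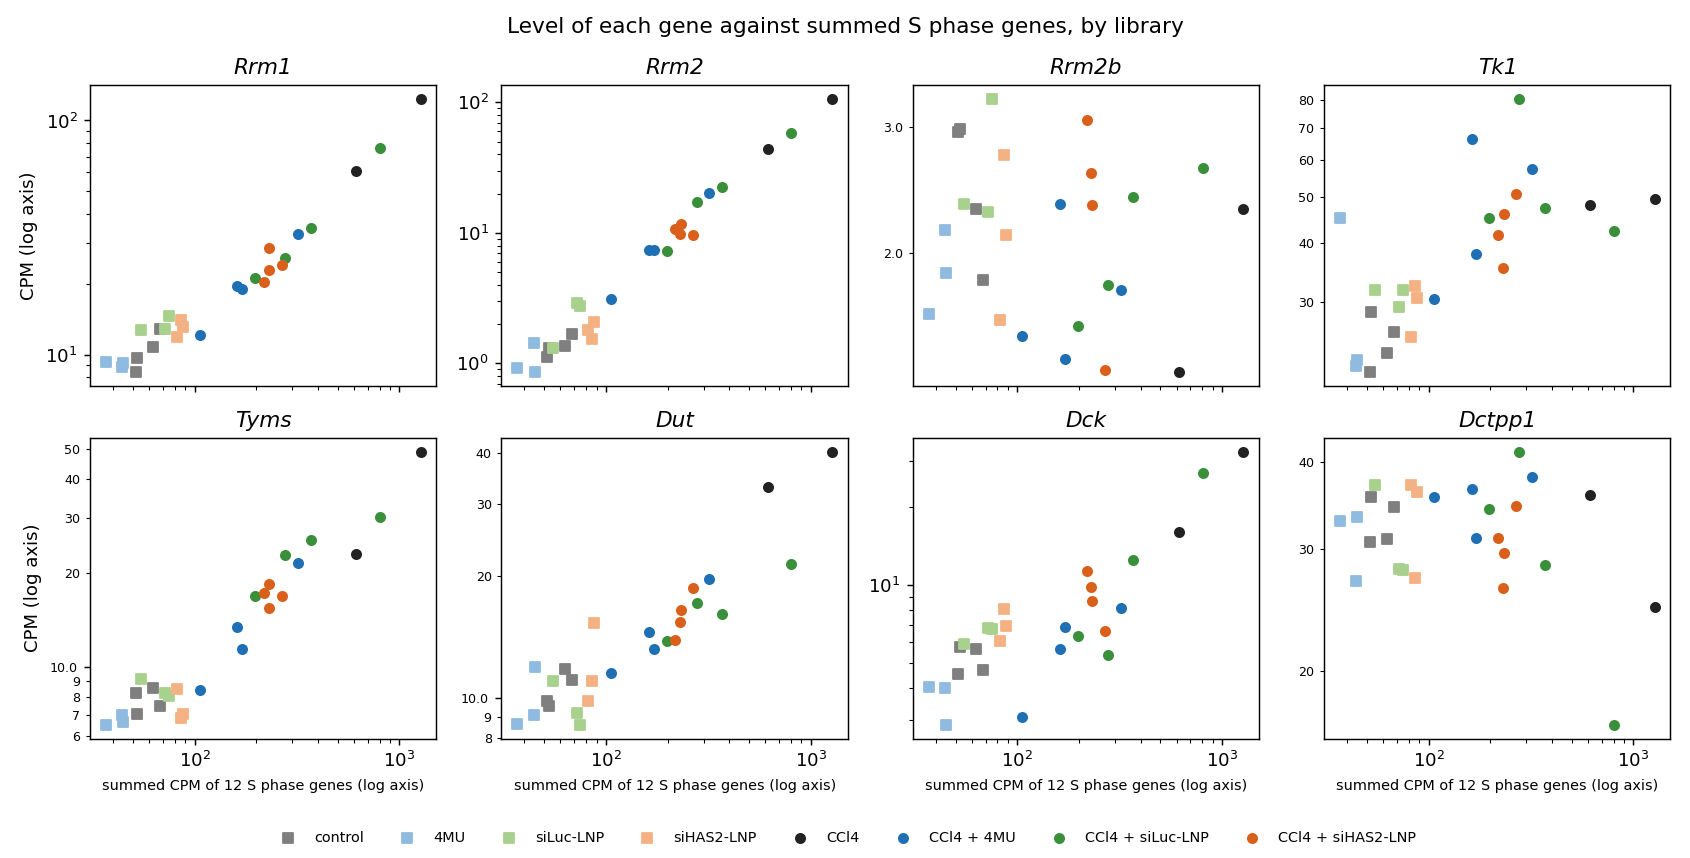
Each point is a library, with the summed CPM of 12 replication and cell cycle genes on the x axis and the CPM of a gene on the y axis, both log axes; squares are mice without CCl4 and circles CCl4 mice. Rrm1 and Rrm2 follow the sum up to 124 and 107 CPM in CCl4 mouse 2. Tk1 is higher in CCl4 mice as the sum is, with an r of 0.208 among the CCl4 mice, where Rrm2b has 0.209 and Dctpp1 -0.554.

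The genes whose levels ranked most like each of the 8 over the 27 libraries, a description in which the CCl4 groups are shared by all points, differed between them. They were Shcbp1 (Spearman's rho 0.977), Ndc80 (0.974) and Ncapg2 (0.968) for Rrm1, and Tpx2, Ncaph and Ncapg (each 0.973) for Rrm2, most of them genes of mitosis. For Tyms they were Ccdc34 (0.952), Tmsb10 (0.944) and Racgap1 (0.940), and for Dut Dbf4 (0.934), Depdc1b (0.922) and H2ax (0.921). For Dck they were Ccr2 (0.897), the receptor of inflammatory monocytes, Actr3 (0.896) and Hltf (0.872). For Tk1 they were Nt5dc2 (0.866), Recql4 (0.837) and Sh3pxd2b (0.834), for Dctpp1 Mrpl12 (0.850), a mitochondrial ribosomal protein, Mpv17l2 (0.797) and Stard10 (0.792), and for Rrm2b Taok1 (0.786), Rap2c (0.780) and Primpol (0.775).

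Markers of liver cell types moved with the same groups, and their part in the results above was not tested. The labelled tissue was checked by its hepatocyte markers, of which the 6 found summed to 77423 to 206295 CPM in every library. With CCl4 over the 4 arms, 5 of 5 monocyte and macrophage markers and 5 of 6 stellate and myofibroblast markers rose, and 3 of 6 hepatocyte markers and 3 of 7 lymphocyte markers fell, where 51.9% of all genes passed. Of the other lists, 4 of 4 Kupffer cell markers fell, 3 of 3 biliary markers rose, 2 of 4 endothelial markers rose and 1 fell, 2 of 3 erythroid markers fell, and 0 of 3 neutrophil markers passed in edgeR, none of them with an unadjusted p under 0.05. The arms differed. Against control and in the 4MU, siLuc-LNP and siHAS2-LNP arms, 1, 1, 3 and 4 Kupffer cell markers fell. In these arms 34.1%, 23.7%, 24.2% and 12.8% of all genes were called. Monocyte and macrophage markers that rose there numbered 5, 5, 1 and 0, and biliary markers 1, 2, 1 and 0. Biliary markers in CCl4 + 4MU mice summed to a median of 4.46 CPM and a highest value of 117 CPM. Stellate and myofibroblast markers summed to 61.3 to 191 CPM without CCl4, 545 and 728 CPM in the CCl4 mice, 189 to 506 CPM with 4MU, 403 to 902 CPM with siLuc-LNP and 226 to 368 CPM with siHAS2-LNP. Monocyte and macrophage markers summed to 39.5 to 179 CPM without CCl4, and to 177 and 234, 252 to 477, 136 to 351 and 95.6 to 165 CPM in the same order. No marker of any list was at 0 in all mice of a group.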

How the data were processed

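PolyA RNA of 27 mouse livers was sequenced in paired ends from a directional library kit. The authors trimmed reads (Trimmomatic 0.39), aligned them with HISAT2 (GRCm39, Ensembl release 105) and deposited raw counts of read pairs per gene from featureCounts, without reads mapping to several places. The submitters' processing notes also name R 3.4.2 and DESeq2. The HISAT2 version and the strand setting are not given in the sources used here. No column belonged to another series.

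Symbols, positions and lengths came from GENCODE vM39 by Ensembl identifier (54749 of 55414 matched), and near-identical copies from minimap2 2.31 (matches of at least 85 bases and 95% identity). Genes averaging 10 or more counts (14114) were normalised by TMM and tested in 1 fit of all 8 groups by edgeR 4.0.16 (quasi-likelihood, Benjamini-Hochberg adjustment over all genes, 0.05) in R 4.3.3. CPM use TMM-scaled totals. The 95% intervals were formed from the SE and a normal quantile, so they are somewhat narrower than the quasi-likelihood test implies. Log2 CPM for rank likeness added 0.1. The alternatives were DESeq2 1.42.0, limma-voom 3.58.1 with quality weights, DESeq2 size factors, library totals, no low-count filter (at least 1 count in all), filterByExpr, only the compared groups, the replicate number as a block and each library left out. For ratios they were counts plus 0.5 and coding length. Permutation tests used scipy 1.17.1 in Python 3.11.15. The fits were tested on simulated data with 200 changed genes. Depths of 7044386 to 29425937 counts limit the precision of low genes such as Rrm2b.

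Named were all 8 genes in every comparison. Of the other deoxynucleotide genes, the 5 called with the largest rise and the 5 with the largest fall with CCl4 over the arms were named, and the 3 called with the smallest p in the 4MU and siRNA comparisons of CCl4 mice. For each of the 8, the 3 genes with a symbol of highest Spearman correlation were named, without predicted genes. The genes and lists were chosen with earlier results of these data known. Mice of a group are taken as separate animals by their labels, and no 2 libraries of a group agreed within sampling noise.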

Additional observations from a re-analysis of the deposited data

Results flagged for a closer look

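The gap between the highest CCl4 + siLuc-LNP mouse and the others was large for Tk1. Mouse 3 had 80.7 CPM, against 42.5 to 47.4 CPM in the other 3, a gap that takes 0.871 of the whole range where 0.829 is the 95% limit of Dixon's ratio for 4 values. It was the single such gap in 32 sets of 4 mice (8 genes in 4 groups), and chance gives about 5% of such sets.

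The effect of 4MU differed between mice with and without CCl4 for Rrm1 (log2 difference -1.95, edgeR adjusted p = 0.0284) and for Dut (-1.21, adjusted p = 0.02), by the interaction term. The term for Rrm1 did not pass without CCl4 mouse 2 (-1.37, adjusted p = 0.225), 4MU mouse 2 or 3, or CCl4 + 4MU mouse 1 or 4 (-1.97 to -1.76), and that for Dut did not pass without CCl4 mouse 2 (-1.09, adjusted p = 0.123) or 4MU mouse 3 (-1.06, adjusted p = 0.0532). Rrm1 was lower in 4 of 4 CCl4 + 4MU mice than in both CCl4 mice.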

How the results depend on the processing

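The count of 6 genes that rose with CCl4 over the 4 arms was found under all alternatives run. The depth of the smallest library, 7044386 counts, limits genes near the 23 to 76 counts of Rrm2b, and the CCl4 group has 2 mice, so leaving one out takes its spread from the other groups. With single libraries left out, the number of the 8 genes called ranged from 2 to 5 in the 4MU arm, 1 to 5 for 4MU, 0 to 4 for siLuc-LNP and 0 to 5 for siHAS2-LNP in CCl4 mice, and 0 to 4 for the interactions of 4MU and of siLuc-LNP with CCl4. In the siHAS2-LNP arm, 4 passed with limma-voom and with only the compared groups. For siLuc-LNP in CCl4 mice the number was 4 without the low-count filter, 2 with DESeq2, 3 with limma-voom and 0 with only the compared groups. Without the filter, 2 passed for siHAS2-LNP against siLuc-LNP in CCl4 mice and 2 in the siLuc-LNP interaction. The 4MU interaction gave 5 with library totals, 5 without the filter, 4 with DESeq2 and 4 with only the compared groups. With library totals 179 of all genes passed above 0 and 1999 below 0 in this interaction, against 384 and 416 in the main fit. Shares of all genes called under the other alternatives, and with single libraries left out, are not given here. These counts of the 8 genes thus have no background beside them. The cause of the changes in count was not tested. Signs turned for Dctpp1 over the arms (0.13 with library totals, 0.0104 with limma-voom, -0.0898 to 0.0367 without single libraries), for Tk1 with 4MU in CCl4 mice (0.00749 with the replicate block, -0.24 to 0.14 without single libraries), for Tyms with siLuc-LNP in CCl4 mice (-1.04 to 0.0373 without single libraries) and for Dck between the siRNAs (-0.79 to 0.12). On deviations from group means, the relation to replication genes in mice without CCl4 turned in sign for Rrm2b (r = -0.077), Tk1 (-0.341) and Tyms (-0.206). Library totals in place of TMM moved the median of all genes to 0.39 for CCl4 against control, -0.30 for 4MU and -0.16 for siHAS2-LNP in CCl4 mice.

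Deviations of same-numbered mice of different groups from their group means correlated at -0.32 to 0.293, with 17 of 83 pairs over 0.1. For differently numbered mice the range was -0.455 to 0.455, with 60 of 234 pairs over 0.1. The main fit therefore did not pair mice by number, though these correlations cannot exclude a pairing. With the replicate number as a block, 6 genes passed with CCl4 over the arms and against control, 5 in the 4MU arm, 5 in the siLuc-LNP arm, 2 in the siHAS2-LNP arm, 5 with 4MU and 5 with siHAS2-LNP in CCl4 mice, 1 with siLuc-LNP and 2 in the 4MU interaction, and 0 in the other comparisons. Shares of all genes called with the block are not given here.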
